A study of Mus musculus with 12 samples.

Results

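S100 proteins and annexins are calcium-binding proteins of the cytoplasm and the inner side of membranes. Described here are 10 of them, namely S100a1, S100a4, S100a6, S100a8, S100a9, S100a10, S100a11, Anxa1, Anxa2 and Anxa5. They were chosen by family membership, with earlier results of these data known, among them the call of S100a6 after MPTP, so their differences between groups are given as a description. Of the 10 genes, 9 had a row in the table, which holds 21135 gene symbols, and all 9 passed the filter on low values. S100a9 was not analysed here.

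RNA-seq was run on microglia, the resident macrophages of the brain, from the midbrain of mice, purified by flow cytometry. Mice called KO carried the floxed Ppargc1a allele (FF) together with CreER, and received MPTP or PBS. Mice called WT carried Ppargc1a FF without CreER, and received MPTP or PBS. All groups were sampled 6 weeks after Tamoxifen, which the WT mice had too, and the labels give 3 samples in each of the 4 groups. Ppargc1a encodes a coactivator of mitochondrial genes, and MPTP is a toxin that kills dopaminergic neurons. No source used here gives the promoter that drives CreER or the dose of MPTP, and loss of Ppargc1a cannot be told apart from the presence of CreER. Ppargc1a lay between 0.12 and 0.42 FPKM in KO profiles and between 2.72 and 6.21 FPKM in WT profiles.

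S100 proteins form dimers that change shape on binding calcium and then hold target proteins, and several act outside the cell as ligands of Ager and Tlr4. Annexins bind acidic phospholipids when calcium is present and take part in membrane repair, vesicle traffic and the clearance of dying cells. The families work together, since S100a10 binds Anxa2 and S100a11 binds Anxa1. In brain macrophages and microglia these genes are known as part of activated states.

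Values were taken as FPKM, fragments per unit of transcript length, scaled to the size of each library, so levels can be compared between genes. The columns summed to between 388861 and 434022 FPKM, and read depth is unknown. Only 6 of the 12 columns were separate profiles: KO MPTP 2, KO PBS 1, KO PBS 2, WT MPTP 1, WT PBS 1 and WT PBS 2. The other columns followed from them by arithmetic to rounding. In each group sample 3 was 0.1 plus 0.99 times the mean of the other samples, WT MPTP 2 was 1.02 times WT MPTP 1, and KO MPTP 1 was 1.02 times KO PBS 2. The last of these puts 1 profile under both treatments, so it was left out of the main fits that compared treatments. Where levels are described, its values are given under the label KO PBS 2. No source tells whether the samples of a group were separate animals. A p-value here therefore covers the spread between profiles alone, and that spread may be technical. In bulk samples, fewer cells of a type and less RNA per cell cannot be told apart.

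The labelled cell type was checked against its markers. Genes shared by macrophages and microglia were high, with Cd68 at 479 FPKM and Tyrobp at 433 FPKM as means of the 6 profiles, and 8 of 8 such genes with a row were at 1 FPKM or more. Of 9 genes that mark microglia in particular, 6 were under 1 FPKM. Among them P2ry12 was at 0.19 FPKM, Cx3cr1 at 0.05 FPKM and Sall1 at 0. Most genes particular to microglia were thus near 0, against the label, while the shared macrophage genes were high.

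Most of the S100 genes lie in a cluster on chromosome 3. S100a4 and S100a6 are separated there by S100a5 alone in the RefSeq gene order, and S100a8 lies beyond S100a7a. The promoters of S100a6 and S100a8 are shown because these genes carried the values that were higher under MPTP, and that of S100a4 because it is the near neighbour of like level whose values were not. Each runs from 250 bases before the start site to 50 bases after it, on the plus strand of GRCm38.p6, from RefSeq. S100a6 is at chr3:90612644-90612943, S100a8 at chr3:90668821-90669120 and S100a4 at chr3:90603520-90603819. Capitals mark motif matches, which are an E-box in S100a6 and a TATA box in S100a8 and S100a4.
S100a6: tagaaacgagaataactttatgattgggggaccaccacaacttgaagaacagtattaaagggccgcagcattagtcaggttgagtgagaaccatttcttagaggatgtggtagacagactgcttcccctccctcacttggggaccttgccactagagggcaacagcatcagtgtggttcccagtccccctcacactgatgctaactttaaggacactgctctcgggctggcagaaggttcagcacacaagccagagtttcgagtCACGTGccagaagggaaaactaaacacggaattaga
S100a8: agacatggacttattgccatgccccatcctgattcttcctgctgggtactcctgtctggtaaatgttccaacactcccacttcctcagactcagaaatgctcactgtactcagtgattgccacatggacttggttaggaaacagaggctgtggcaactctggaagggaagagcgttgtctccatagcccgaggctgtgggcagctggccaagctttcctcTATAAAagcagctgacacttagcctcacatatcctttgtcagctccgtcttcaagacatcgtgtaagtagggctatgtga
S100a4: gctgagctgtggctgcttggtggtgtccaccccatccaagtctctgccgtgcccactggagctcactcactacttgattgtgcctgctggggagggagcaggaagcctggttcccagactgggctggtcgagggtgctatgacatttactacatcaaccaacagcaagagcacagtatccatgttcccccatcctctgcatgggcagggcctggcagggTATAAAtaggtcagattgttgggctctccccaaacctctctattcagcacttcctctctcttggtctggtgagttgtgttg

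In these windows, 6 motifs were searched on both strands. They were the TATA box (TATAAA), the E-box (CACGTG), AP-1 (TGANTCA), C/EBP (TTGCNNAA), the NF-kB motif and the antioxidant response element (TGACNNNGC). Among 32851 promoters of the same length, 13.6% held the TATA box, 7.15% the E-box, 7.81% the AP-1 letters, 10.8% the C/EBP letters, 0.411% the NF-kB motif and 12.4% the antioxidant response element. The TATA box began 30 bases before the start site in S100a8 and 31 bases before it in S100a4. S100a6 held no TATA box, and its E-box began 14 bases after the start site. None of the other motif letters occurred in these 3 windows.

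Of the 9 measured genes, 8 were among the highest 898 of the 21135 symbols by mean level. Anxa2 was highest with 298 ± 15.8 FPKM (SD over the 6 separate profiles, here and for the levels that follow). S100a1 followed at 245 ± 18.4, S100a4 at 223 ± 15.3, S100a10 at 209 ± 9.05 and S100a6 at 179.6 ± 52.7 FPKM. S100a11 was at 134 ± 8.30, Anxa5 at 78.9 ± 3.00 and Anxa1 at 63.1 ± 3.19 FPKM. S100a8 stood far below the rest at 4.52 ± 0.988 FPKM. Neighbours in the order from S100a1 down to S100a11 overlapped in their ranges. Anxa2, with a lowest value of 278.4 FPKM, lay wholly above S100a1, with a highest value of 270.31 FPKM. S100a11 did not come below 123.37 FPKM, and Anxa5 did not exceed 83.15 FPKM.

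The genes also differed in how much they varied. The coefficient of variation over the 6 profiles was 29.4% for S100a6 and 21.9% for S100a8, and lay between 3.80% for Anxa5 and 7.50% for S100a1 for the other 7 genes. The spread of S100a6 and S100a8 ran along treatment, as the plot of levels by profile shows. Summed over the 9 genes, the level was 1486.8 FPKM in KO MPTP 2 and 1581.48 FPKM in WT MPTP 1, against 1358.27 FPKM in KO PBS 1, 1399.93 FPKM in WT PBS 1 and 1489.18 FPKM in WT PBS 2.

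**Figure D1:**
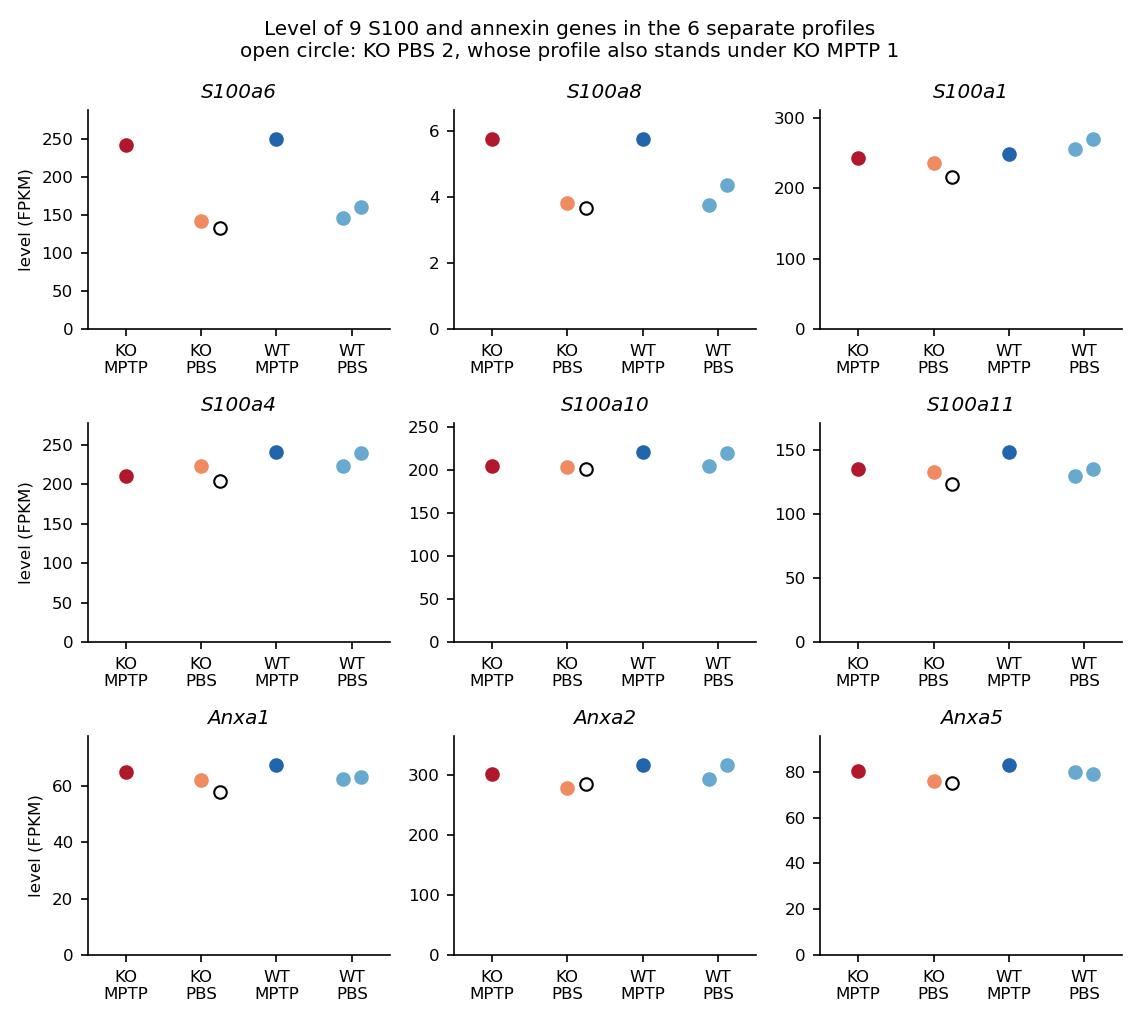
Level of each of the 9 measured genes in FPKM in the 6 separate profiles, grouped as KO MPTP, KO PBS, WT MPTP and WT PBS, 1 point per profile. S100a6 was at 242.61 and 250.64 FPKM in the MPTP profiles and at or below 161.15 FPKM in the PBS profiles, and S100a8 shows the same order at a far lower level.

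S100a6, also called calcyclin, is an S100 protein first known from dividing cells that binds Cacybp. It had 242.61 FPKM in KO MPTP 2, against 142.93 FPKM in KO PBS 1 and 133.42 FPKM in KO PBS 2. In WT mice it had 250.64 FPKM in WT MPTP 1, against 146.85 FPKM in WT PBS 1 and 161.15 FPKM in WT PBS 2. Both MPTP profiles were above all PBS profiles. The MPTP level was 1.70 times that of KO PBS 1 in KO mice and 1.63 times the mean PBS level in WT mice. The pair of WT PBS profiles differed by 1.10 times.

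On the log2(FPKM + 1) scale, which understates differences of low genes, S100a6 rose after MPTP by 0.76 ± 0.10 in KO mice (SE, limma, Benjamini-Hochberg adjusted p = 0.0161) and by 0.70 ± 0.09 in WT mice (limma, adjusted p = 0.00966). With both genotypes in 1 additive limma model the rise was 0.73 ± 0.06 (adjusted p = 0.00433). These values stood near the top of the table, at rank 19 by size among 10636 genes tested in KO mice, rank 20 in WT mice and rank 11 over both. The difference between the genotypes in the MPTP response was 0.06 ± 0.13, with a 95% interval from -0.24 to 0.36. WT PBS had 2 profiles in this fit and every other group 1, which is assumed to vary like the WT PBS pair. With KO PBS 2 counted as KO PBS and WT PBS 1 left out, the adjusted p in WT mice was 0.051, and with KO PBS 2 counted as KO MPTP it was 0.885 in KO mice and 0.746 in WT mice (limma). The limma adjusted p was also above 0.05 with no filter on low values, at 0.324 in KO mice and 0.448 in WT mice, and in KO mice with quantile normalization, at 0.0686.

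S100a8 encodes a subunit of calprotectin, which it forms with S100a9, and is a ligand of Tlr4 made mainly by neutrophils and monocytes. It had 5.76 FPKM in KO MPTP 2, against 3.81 FPKM in KO PBS 1 and 3.68 FPKM in KO PBS 2. In WT mice it had 5.75 FPKM in WT MPTP 1, against 3.75 FPKM in WT PBS 1 and 4.35 FPKM in WT PBS 2. Again both MPTP profiles were above all PBS profiles. The log2 difference was 0.49 ± 0.12 in KO mice (limma, adjusted p = 0.208), 0.42 ± 0.11 in WT mice (limma, adjusted p = 0.563) and 0.45 ± 0.08 over both genotypes (limma, adjusted p = 0.183), so S100a8 did not pass the threshold of 0.05 in any of them.

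The values of both genes departed from the arithmetic that the rest of the table follows. Of the 30 rows of the 9 genes, 28 followed the relations and 2 did not, and these 2 were the main rows of S100a6 and S100a8. Over the whole table, 49 of 67355 rows in 42 genes departed. The departing row held 92.2% of the S100a6 level and 99.6% of the S100a8 level.

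In the S100a6 row, KO MPTP 1 held 223.28 FPKM, where 1.02 times KO PBS 2 gives 123.277 FPKM, a surplus of 100.003 FPKM. WT MPTP 2 held 237.76 FPKM, where 1.02 times WT MPTP 1 gives 239.761 FPKM. The constant that, taken from both WT MPTP columns, restores the relation is 100.06 FPKM, and rounding allows 99.555 to 100.565 FPKM. With that constant taken off, the row stood at 135.0 FPKM in WT MPTP 1, against 120.86 to 140.00 FPKM in the PBS profiles. KO MPTP 2, at 231.12 FPKM in the row, has no relation of its own, and the surplus in KO MPTP 1 is itself a gap between an MPTP and a PBS column.

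The other 3 rows of S100a6, which followed the relations, were not higher under MPTP in KO mice. Summed, they had 11.49 FPKM in KO MPTP 2, against 12.21 FPKM in KO PBS 1 and 12.56 FPKM in KO PBS 2. In WT mice they had 15.58 FPKM in WT MPTP 1, between 11.1 FPKM in WT PBS 1 and 21.15 FPKM in WT PBS 2. With the departing rows left out, the log2 difference of S100a6 after MPTP was -0.08 in KO mice, against 0.76 with them. In WT mice it was 0.02, against 0.70 with them. That refit cannot test the difference, since a gap between KO MPTP 1 and KO PBS 2 is itself what marks a row as departing. The row left out also held 92.2% of the S100a6 level. With the constant that restores the relation taken from WT MPTP 1, the difference in WT mice was -0.03 (limma, adjusted p = 1).

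In the S100a8 row, KO MPTP 1 held 5.75 FPKM, where the relation gives 3.75 FPKM, a surplus of 2.00 FPKM. WT MPTP 2 held 5.82 FPKM, where the relation gives 5.84 FPKM, and the constant that restores it is 1.23 FPKM, with 0.725 to 1.735 FPKM allowed by rounding. With 1.23 FPKM taken off, the row stood at 4.5 FPKM in WT MPTP 1, above the 3.68 to 4.35 FPKM of the PBS profiles. The log2 difference of S100a8 in WT mice was then 0.13, against 0.42 as deposited. With the 1.735 FPKM that rounding also allows, WT MPTP 1 would fall within the PBS range, so a remaining difference is not established. How the departing values arose was not tested. The higher values of S100a6 and S100a8 under MPTP lie in these 2 rows, in which KO MPTP 1 and WT MPTP 2 departed while sample 3 of each group followed its relation.

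**Figure D2:**
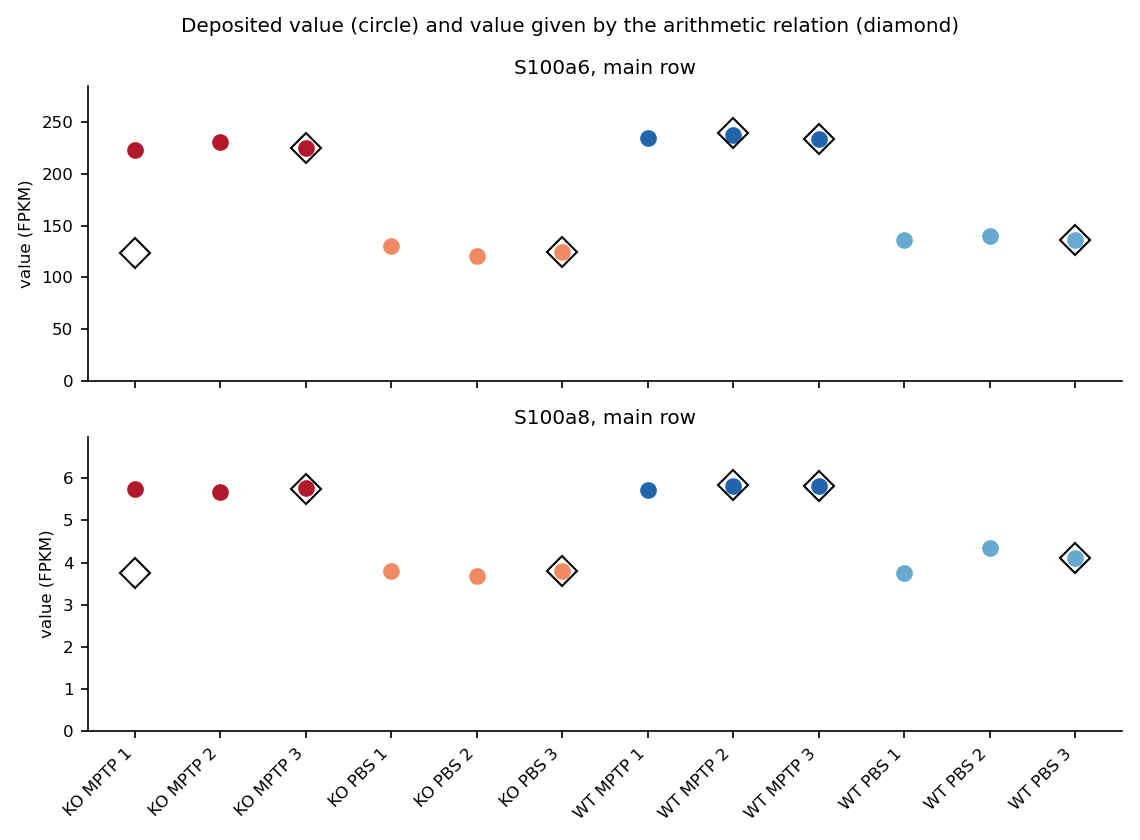
Main row of S100a6 and of S100a8 in FPKM in all 12 columns, as deposited (circle) and, for the 6 computed columns, as the arithmetic relation gives it (diamond). In KO MPTP 1 the deposited S100a6 value of 223.28 FPKM stands above the 123.277 FPKM of the relation, and that of S100a8 stands at 5.75 FPKM above 3.75 FPKM.

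The other 7 genes showed no difference of that size after MPTP, and none of their rows departed from the relations. Their log2 differences lay between -0.08 and 0.12 in KO mice and between -0.08 and 0.16 in WT mice. In KO mice, where the median of all genes was at 0.09, all 7 were below 0 after TMM rescaling, from -0.20 for S100a4 to -0.001 for Anxa2. Counting all 9 genes, 1 was called higher and 0 lower in KO mice, where 0.291% of all genes tested were called. In WT mice 1 was likewise called higher and 0 lower, against 0.254% of all genes. Over both genotypes 1 was called higher, against 0.141% of all genes. At an unadjusted p under 0.05, 2 of the 9 passed in each of these 3 comparisons, S100a6 and S100a8, against 9.24% of all genes in KO mice, 2.69% in WT mice and 6.6% over both genotypes.

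As a group the genes stood close to the table as a whole. Their median log2 difference after MPTP was 0.06 in KO mice, against 0.09 for all genes, and 0.07 in WT mice, against 0.04 for all genes. Both MPTP profiles were above the 3 PBS profiles for 4 of the 9 genes, namely S100a6, S100a8, Anxa1 and Anxa5, and 28.3% of all genes had this pattern. Both were below for 0 of the 9, and for 0.827% of all genes.

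S100a11, which binds Anxa1 and takes part in membrane repair, came next in size in WT mice. It had 134.66 FPKM in KO MPTP 2, against 132.6 FPKM in KO PBS 1, and 148.47 FPKM in WT MPTP 1, against 129.67 FPKM in WT PBS 1 and 135.02 FPKM in WT PBS 2. The MPTP profile was above PBS within each genotype, yet KO MPTP 2 lay under WT PBS 2. The log2 difference in WT mice was 0.16 ± 0.08 (limma, adjusted p = 1), with a 95% interval from -0.01 to 0.34.

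S100a1, known for calcium handling in heart muscle, had 242.59 FPKM in KO MPTP 2, against 236.6 FPKM in KO PBS 1. In WT mice it had 248.77 FPKM in WT MPTP 1, against 255.92 FPKM in WT PBS 1 and 270.31 FPKM in WT PBS 2. The MPTP value was the higher in KO mice and the lower in WT mice, and the log2 differences of 0.04 and -0.08 both had intervals that include 0.

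S100a4 binds non-muscle myosin and is tied to cell motility. It had 209.94 FPKM in KO MPTP 2, against 222.67 FPKM in KO PBS 1, and 241.02 FPKM in WT MPTP 1, against 223.32 FPKM in WT PBS 1 and 239.87 FPKM in WT PBS 2. These profiles overlapped between treatments. S100a10, the partner of Anxa2 that has lost calcium binding, had 203.98 FPKM in KO MPTP 2, against 203.12 FPKM in KO PBS 1, and 220.82 FPKM in WT MPTP 1, against 204.45 FPKM in WT PBS 1 and 219.91 FPKM in WT PBS 2.

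Among the annexins, Anxa1, which calms inflammation through formyl peptide receptors, had 65.01 FPKM in KO MPTP 2, against 62.2 FPKM in KO PBS 1. It had 67.55 FPKM in WT MPTP 1, against 62.59 FPKM in WT PBS 1 and 63.15 FPKM in WT PBS 2. Both MPTP profiles were above these PBS profiles, by a log2 difference of 0.06 ± 0.09 in KO mice and 0.10 ± 0.08 in WT mice, each with a 95% interval that includes 0.

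Anxa2 forms with S100a10 a complex on the cell surface that binds plasminogen. It had 301.71 FPKM in KO MPTP 2, against 278.4 FPKM in KO PBS 1, and 315.31 FPKM in WT MPTP 1, against 293.44 FPKM in WT PBS 1 and 316.52 FPKM in WT PBS 2. The WT values overlapped. Anxa5, which binds phosphatidylserine on dying cells, had 80.54 FPKM in KO MPTP 2, against 75.94 FPKM in KO PBS 1, and 83.15 FPKM in WT MPTP 1, against 79.94 FPKM in WT PBS 1 and 78.9 FPKM in WT PBS 2.

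The profile that stands under both treatments, KO PBS 2, was the lowest or next to lowest of the 6 for each of these 7 genes. It had 216.04 FPKM of S100a1, 203.41 FPKM of S100a4, 200.61 FPKM of S100a10 and 123.37 FPKM of S100a11. Of the annexins it had 57.98 FPKM of Anxa1, 284.53 FPKM of Anxa2 and 75.12 FPKM of Anxa5.

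**Figure D3:**
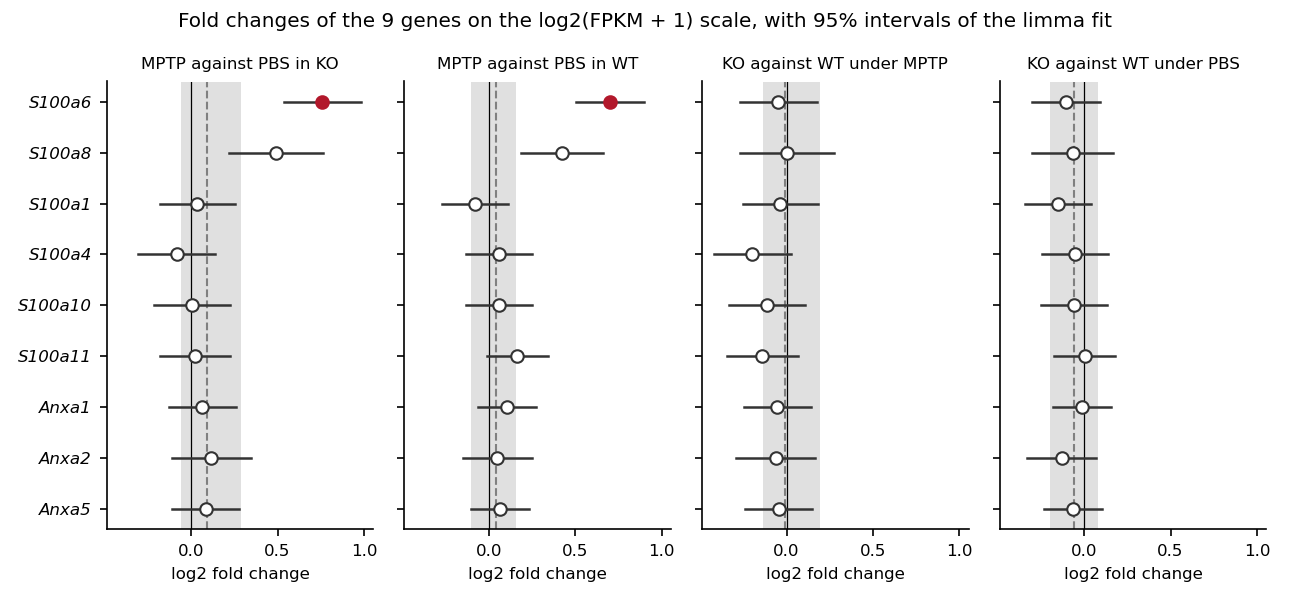
Log2 difference of each gene with its 95% interval (limma, on log2(FPKM + 1)) in the comparisons of treatment and genotype, with the median of all genes as a dashed line and their 5th to 95th percentile as a grey band. S100a6 stands at 0.76 in KO mice and 0.70 in WT mice after MPTP, outside the band, and the genes other than S100a6 and S100a8 lie between -0.08 and 0.16 in both. Of these, S100a4 in KO mice lies below the band and S100a11 in WT mice lies slightly above it.

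Between genotypes none of the 9 genes passed the test, and most had slightly lower values in KO mice as deposited. Under PBS, 8 of the 9 log2 differences were below 0 (4 of 9 after TMM rescaling, a scaling on the bulk of genes, and 4 of 9 after quantile normalization), from -0.15 ± 0.09 for S100a1 to 0.003 for S100a11, with a median of -0.06 against -0.06 for all genes. Called were 0 of the 9 by limma, and 0.226% of all genes. Under MPTP 8 were again below 0 (9 with TMM rescaling and 6 with quantile normalization), from -0.20 ± 0.10 for S100a4 to 0.002 for S100a8, and 0 were called, against 0.132% of all genes. At an unadjusted p under 0.05, 0 of the 9 passed in either. For the interaction of MPTP and genotype 0 were called, against 0.0752% of all genes, also 0 at an unadjusted p under 0.05, and the differences lay between -0.14 and 0.12.

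Over both treatments KO PBS 2 could be kept, since that profile is KO under both of its labels, and 3 KO profiles stood against 3 WT profiles. All 9 genes were below 0 there (9 also with TMM rescaling and 7 with quantile normalization), with a median of -0.09 against -0.03 for all genes, of which 30.5% were above 0. By limma 0 of the 9 were called, against 0.0752% of all genes, and 2 passed at an unadjusted p under 0.05, against 3.5% of all genes. These were S100a1 with -0.16 ± 0.06 and S100a4 with -0.15 ± 0.06, both with an adjusted p of 0.997 by limma.

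S100a1, S100a4 and S100a10 had KO profiles wholly below the WT profiles, the last 2 only narrowly. The highest KO and lowest WT values were 222.67 and 223.32 FPKM for S100a4, and 203.98 and 204.45 FPKM for S100a10. For S100a1 they were 242.59 and 248.77 FPKM. S100a1 averaged 231.7 ± 13.9 FPKM in KO profiles and 258.3 ± 10.97 FPKM in WT profiles (SD, n = 3 each, exact permutation p = 0.1, two-sided). S100a4 averaged 212.0 ± 9.80 FPKM in KO profiles and 234.7 ± 9.90 FPKM in WT profiles, and S100a10 averaged 202.6 ± 1.75 FPKM in KO profiles and 215.1 ± 9.20 FPKM in WT profiles, with the same exact permutation p. An exact p of 0.1 is the smallest that 3 profiles against 3 allow. Such a pattern, KO below WT with no overlap, was found in 3 of the 9 genes and in 7.23% of all genes, and KO above WT with no overlap in 0 of the 9 and in 0.827% of all genes. After TMM rescaling these 3 genes overlapped between genotypes, and 1 of the 9, Anxa2, had KO wholly below WT, against 6.55% of all genes.

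The other 6 genes overlapped between genotypes as deposited. Anxa2 averaged 288 FPKM in KO profiles and 308 FPKM in WT profiles, S100a11 130 FPKM in KO profiles and 138 FPKM in WT profiles, and Anxa5 77.2 FPKM in KO profiles and 80.7 FPKM in WT profiles. For S100a6 the KO mean was 173 ± 60.5 FPKM and the WT mean 186 ± 56.3 FPKM (SD, n = 3 each). That spread spans MPTP and PBS profiles, so it holds the treatment gap of the departing row. Within treatment, S100a6 was at 242.61 FPKM in KO MPTP 2, against 250.64 FPKM in WT MPTP 1. Under PBS it was at 142.93 FPKM in KO PBS 1, against 146.85 FPKM in WT PBS 1 and 161.15 FPKM in WT PBS 2.

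Other genes of the families and their partners were set beside these. Of the other S100 genes, 6 had a row, 5 of them under 1 FPKM, and S100a13 at 22.6 FPKM was the 1 that could be tested. Of the other annexins 8 had a row and 6 were tested, led by Anxa4 at 418.2 FPKM and Anxa3 at 106.8 FPKM. Among receptors, 3 were tested, led by Bsg at 264.6 FPKM and Tlr4 at 25.0 FPKM, while Ager, the receptor for several S100 proteins, was at 0.208 FPKM. Of 10 binding partners and genes of the plasminogen system, 8 were tested, among them Ahnak, which binds the complex of S100a10 and Anxa2, at 89.7 FPKM and Plau, which activates plasminogen, at 59.5 FPKM. In each of the 7 limma comparisons, 0 of the 18 genes tested from these 4 lists were called in either direction. At an unadjusted p under 0.05, between 0 and 3 of the 18 passed. The 3 were Anxa3, Anxa9 and Plgrkt for MPTP in KO mice, against 9.24% of all genes. Pla2g4a and Tlr4 passed for MPTP in WT mice, against 2.69% of all genes. The 0 was for genotypes over both treatments, against 3.5% of all genes. In the other comparisons the count lay between these, against 3.62% to 6.6% of all genes.

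**Figure D4:**
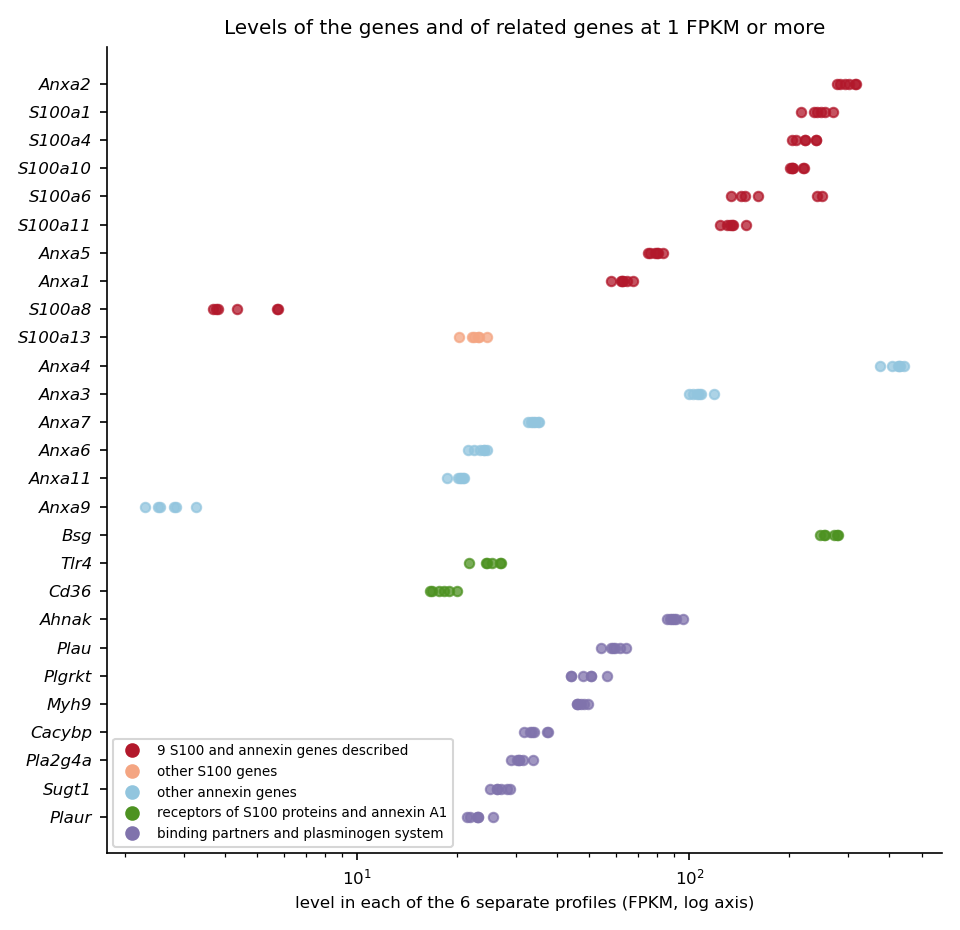
Level in FPKM on a log axis of the 9 genes beside the other S100 genes, the other annexins, their receptors and their binding partners. Each gene has 1 point for each of the 6 separate profiles. Genes with a mean under 1 FPKM, among them 5 of the 6 other S100 genes, are not drawn. Of the 9 genes, S100a8, with a mean of 4.52 FPKM, stands alone below the others.

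S100a8 is a granulocyte and monocyte gene, so markers of those cells were read beside it. Of 11 granulocyte markers with a row, 7 were under 1 FPKM. Ly6g was at 0.0017 FPKM and Mpo at 0.005 FPKM, while Cxcr2 was at 20.4 FPKM. Their summed level was 27.43 to 28.01 FPKM in MPTP profiles, against 26.33 to 27.64 FPKM in PBS profiles other than KO PBS 2. The 8 monocyte markers summed to 403.88 to 458.61 FPKM in MPTP profiles, against 351.04 to 407.6 FPKM in PBS profiles, most of it Chil3 at 366 FPKM, with 6 of the 8 under 1 FPKM. Their part in the S100a8 values was not tested.

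Across the 6 separate profiles, S100a6 and S100a8 ran closely together, at r = 0.99 (Pearson) and rho = 0.89 (Spearman) on log2(FPKM + 1). Both levels lie mostly in the departing rows. The points fall into an MPTP and a PBS cluster, and over the 4 profiles without MPTP r was 0.91. With the other measured genes of the families, S100a6 had r without MPTP from 0.74 for Anxa5 to 0.98 for S100a4. Its rho over the 6 profiles ran from 0.54 for S100a1 to 1 for Anxa1, so the pair did not stand apart. The other genes closest to S100a6 were Gtf2e2 and Cep128, both at r = 0.99, and 273 of 10635 genes, or 2.57%, exceeded 0.9. Known partners had r of 0.89 for S100a10 with Anxa2 and 0.94 for S100a11 with Anxa1. Such values were not particular to partners, since 253 genes, or 2.38%, exceeded 0.9 with S100a10, and 114 genes, or 1.07%, with S100a11. For Anxa2 the closest gene was Rack1 at r = 0.998, with 659 genes, or 6.2%, above 0.9. The closest to S100a10 was Drap1 at r = 0.996, to S100a11 Vta1 at r = 0.994 and to S100a4 Trappc12 at r = 0.987. All points share the same profiles and their scaling.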

How the data were processed

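The deposited values, per gene row and sample, were taken as FPKM, since the submitters' processing notes name Cufflinks, beside CASAVA 1.5, Bowtie 0.12.7, TopHat and mm9, with no role or order. No source used here states the unit, the annotation or what a row stands for. Rows were summed per symbol into 21135 genes, after 1 row with a text cell was left out, and 0 columns belonged to no sample. A row followed a relation when it lay within 0.0101 FPKM for multiples of 1 column and 0.00995 FPKM for means, the limits of rounding.

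Genes at 1 FPKM or more in at least 3 of the 6 separate profiles were tested, 10636 in all, with limma 3.58.1 in R 4.3.3 on log2(FPKM + 1) with a mean-variance trend, Benjamini-Hochberg adjustment over all genes and a threshold of 0.05. Treatments were compared over 5 profiles, genotypes over both treatments over 6. The procedure was tested on simulated data. Named genes were all 10 members, 2 of highest mean from each related list where none was called, and the closest genes by Pearson r. The members and lists were chosen with earlier results of these data known. Alternatives were other pseudocounts, filters, scalings and profile choices, rows off the relations left out, and the replicate block. One choice was added after seeing the data: the departures of the S100a6 and S100a8 rows taken off. S100a9 was not analysed here, and proteins were not used here. Figures were drawn with Python 3.11.15.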

Additional observations from a re-analysis of the deposited data

Results flagged for a closer look

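KO MPTP 1 was used in no main comparison, because it repeats KO PBS 2 with a factor of 1.02. It entered only the alternatives that count it as deposited or take all 12 columns as libraries. Its values for 2 of the 9 genes exceeded what that factor gives. The main row of S100a6 was 100.003 FPKM above it, and the main row of S100a8 was 2.00 FPKM above it. How these values arose was not tested.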

How the results depend on the processing

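S100a6 was the 1 gene of the 9 called after MPTP in WT mice, in KO mice and over both genotypes. In each of these comparisons the count was 0 with no filter, with the departing rows left out, with departures taken off and with KO PBS 2 counted as KO MPTP, and in KO mice also with quantile normalization. Taking all 12 columns as libraries gave counts of 6 in WT mice (20.2% of all genes), 2 in KO mice (0.197%) and 6 over both (27.9%), as well as 5 lower in KO under PBS (12.4%), 6 under MPTP (14.5%) and 4 over both treatments (9.62%), where the count was 0. Over both genotypes the count was 2 with KO PBS 2 counted as KO PBS and with KO MPTP 1 as deposited. Leaving out single profiles gave counts of 0 to 1 in WT mice, 0 without WT PBS 1 with KO PBS 2 counted as KO PBS, and moved no other count. With departures taken off, S100a6 was at -0.0307 in WT mice, -0.00324 in KO mice and -0.0189 over both. The KO part is no test, since the surplus taken from KO MPTP 2 is a gap between an MPTP and a PBS column. With the departing rows left out, S100a6 was at -0.0809 in KO mice and -0.0242 over both. Leaving them out is no test either, since a gap between KO MPTP 1 and KO PBS 2 marks a row as departing. In the replicate block fit with KO PBS 2 counted as KO PBS, S100a6 was at 0.71 in WT mice and 0.80 in KO mice, and the count over both genotypes was 2. The numbers were not taken as pairing, since only 2 are shared (r = 0.227 between deviations of KO PBS 1 and WT PBS 1). Of 1021 log2 differences in alternatives, 87 changed sign, and 5 of these belonged to values called as reported. Depth is unknown, and single profiles limit every treatment comparison.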
